A study of Mus musculus with 6 samples.

Results

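The mitochondrial large ribosomal subunit was followed here through its Mrpl genes, which encode most of its proteins, in gastrocnemius muscle of wild type and Sparc knockout mice. Members were all genes whose only platform symbol is Mrpl followed by a digit. This gave 53 probe sets for 48 genes, of 19938 named genes in all, and 5 genes had a second probe set, in which case the brighter of the pair by its mean was used. Every one of the 48 lay above the filter for dim probe sets (3.90 on the log2 scale), so the members are among the 16487 genes tested. One further probe set carried the Mrpl53 symbol beside that of another gene and was not used.

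The groups were 3 males labelled wild type and 3 labelled homogenous SPARC knockout, all 12 weeks old, with 1 whole-transcript array each. Both carry the strain label B6;129S-Sparctm1Hwe/J, a mixed B6 and 129S background, and no other allele or agent is named. SPARC is a secreted protein of the extracellular matrix that binds collagen. Litters are not given, and p-values measure the spread between these samples. Because each sample is a piece of whole muscle, fewer cells of a type and less RNA per cell cannot be told apart.

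Mitochondria translate the few proteins encoded by their own DNA, all of them core parts of the respiratory chain and ATP synthase, on a ribosome of their own. Its large subunit holds the peptidyl transferase centre, where amino acids are joined, and the tunnel through which the new chain leaves towards the inner membrane. Its proteins are made from nuclear genes in the cytosol and imported. Some descend from bacterial ribosomal proteins and others are found only in mitochondria. Skeletal muscle relies on this system to keep its oxidative capacity.

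The arrays had median intensities of 40.5 to 44.7. Sparc itself read 11.7 to 11.9 in wild type and 5.83 to 6.74 in knockout muscle on the log2 scale, as the labels say. On the first principal component, knockout array 2 was the knockout closest to the wild types, so that results below are also given without it where they move. Of the 10 muscle fibre markers, such as Ckm and Acta1, none lay under the dim filter.

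The Mrpl genes were lower in knockout muscle as a group, with 1 gene moving strongly the other way. Of 48 members, 43 had a negative change, against 50% of all genes tested, and the median log2 change (knockout minus wild type) was -0.26, while over all genes it was 5.3e-05. After adjustment over all 16487 genes, 3 members passed the limma threshold of 0.05: Mrpl20 rose, and Mrpl55 and Mrpl54 fell. Over all genes 0.995% passed, 0.321% in the higher and 0.673% in the lower direction. With no adjustment, 28 members (58.3%) were lower at p under 0.05 and 1 was higher, against 10.3% and 8.16% of all genes tested. The cumulative plot of log2 changes shows this as a curve displaced to the left over most of its length, not as a few extreme genes.

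**Figure D1:**
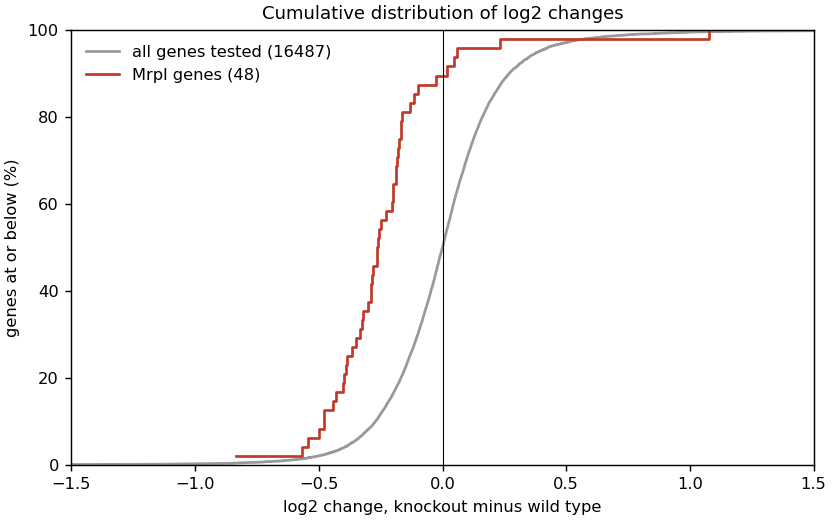
Cumulative distribution of the log2 change (x axis, knockout minus wild type) for the 48 Mrpl genes (red) and the 16487 genes tested (grey), with the percentage of genes at or below each value on the y axis. The Mrpl curve crosses its median at -0.26 and ends with a single gene, Mrpl20, at 1.08.

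Promoter sequences are shown for 2 of the 3 called members, which moved in opposite directions, and for Mrpl57, which was not called. They are the 250 bases before the annotated start in RefSeq (GRCm38.p6, all on the plus strand). Shown are Mrpl20 (chr4:155802628-155802877), which rose, Mrpl55 (chr11:59202236-59202485), which fell, and Mrpl57 (chr14:57825989-57826238), the member with the largest decrease whose promoter window holds both motifs described next. Mrpl54 had no entry in the promoter table. Capitals mark matches to any of 5 motifs searched on both strands.
Mrpl20: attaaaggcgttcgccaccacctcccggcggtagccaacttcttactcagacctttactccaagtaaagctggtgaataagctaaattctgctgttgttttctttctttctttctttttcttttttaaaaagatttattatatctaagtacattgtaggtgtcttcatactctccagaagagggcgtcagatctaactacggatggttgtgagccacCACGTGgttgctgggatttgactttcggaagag
Mrpl55: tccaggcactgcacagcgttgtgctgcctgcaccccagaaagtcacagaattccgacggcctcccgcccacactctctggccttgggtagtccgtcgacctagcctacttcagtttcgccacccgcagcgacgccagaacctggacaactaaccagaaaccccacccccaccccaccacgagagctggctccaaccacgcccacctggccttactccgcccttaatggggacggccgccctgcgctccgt
Mrpl57: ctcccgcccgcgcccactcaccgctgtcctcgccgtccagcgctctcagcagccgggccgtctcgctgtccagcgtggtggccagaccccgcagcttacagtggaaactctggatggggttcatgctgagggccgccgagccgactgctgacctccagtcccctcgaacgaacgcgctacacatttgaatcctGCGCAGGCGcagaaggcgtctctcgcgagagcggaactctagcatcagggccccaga
The motifs were CCGGAAG (the core bound by ETS factors such as GABP), GCGCANGCG (NRF1), AAGATGG (YY1), CACGTG (the E-box) and TATAAA (the TATA box), none of which overlap another in these stretches. NRF1 and GABP are textbook regulators of nuclear genes for mitochondrial proteins. In windows of 300 bases (250 before to 50 after the start), the GABP core stood in 14 of 47 Mrpl promoters (29.8%), against 8.86% of all 32851 promoters, and the NRF1 motif in 12 (25.5%), against 6.25%. The YY1 motif was in 14.9% against 6.34%, the E-box in 12.8% against 7.15% (6 Mrpl promoters from 4 genes, 3 of them those of Mrpl2), and the TATA box in 6.38% against 13.6%. The 47 promoters belong to 42 of the 48 genes, and their median GC content was 57.7%, against 52.7% in all promoters. Mrpl20 held only the E-box, which begins 33 bases before its start, and Mrpl55 held none of the 5. Mrpl57 held the NRF1 motif 57 bases before its start and the GABP core in the 50 bases after it, which are not printed. These matches are descriptions of letters and not of binding.

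Mrpl20, the counterpart of a bacterial protein that joins the large subunit early in its assembly, was the only member called higher. Its log2 intensity was 7.42, 7.33 and 7.23 in wild type arrays 1 to 3 and 8.47, 8.37 and 8.36 in knockout arrays 1 to 3. The knockout values lay close together and far above every wild type value. The difference was 1.08 ± 0.09 (SE), a 2.11-fold increase (limma adjusted p = 0.00187), and by p it ranked at place 11 among all genes tested. It passed the threshold in all 15 alternative settings tried, with changes of 1.03 to 1.12.

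Mrpl55, the counterpart of a bacterial protein that lies at the interface between the subunits, fell most. It read 8.67, 8.32 and 8.30 in wild type and 7.61, 7.61 and 7.55 in knockout arrays. The knockouts lay close together, and wild type array 1 stood above the other 2 wild types. The change was -0.83 ± 0.12 (SE), 1.78-fold lower (limma adjusted p = 0.0190). Without wild type array 1, 2 or 3 it was -0.71, -0.89 or -0.90, and the adjusted p was 0.0644, 0.0900 or 0.0826.

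Mrpl54, a protein found in mitochondrial but not bacterial ribosomes, fell by a smaller amount. It read 9.20, 8.98 and 8.95 in wild type and 8.59, 8.45 and 8.38 in knockout arrays, without overlap. The change was -0.57 ± 0.11 (SE), 1.48-fold lower, at an adjusted p of 0.0499 by limma, at the edge of the threshold. The call was lost in 10 of the 15 alternative settings, with adjusted p-values up to 0.202 when 1 wild type array was left out.

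Among the members with the next largest decreases, none passed over all genes. Mrpl57, another protein specific to mitochondria, read 7.35, 7.03 and 7.09 in wild type and 6.64, 6.59 and 6.60 in knockout arrays, a change of -0.54 ± 0.11 (SE; limma adjusted p = 0.0583). Mrpl2, the counterpart of a bacterial protein beside the peptidyl transferase centre, read 8.50, 8.21 and 8.22 against 7.65, 7.81 and 7.96, a change of -0.50 ± 0.12 (SE; adjusted p = 0.0911 by limma). In both genes the knockout values lay below all wild type values, but those of Mrpl2 were spread more widely. Mrpl36, one of the smallest ribosomal proteins, read 8.34, 8.17 and 8.15 in wild type and 7.71, 7.90 and 7.62 in knockout arrays (change -0.48 ± 0.11 SE; limma adjusted p = 0.0807). Mrpl51 read 9.998, 9.78 and 9.86 against 9.27, 9.55 and 9.39 (change -0.48 ± 0.10 SE; limma adjusted p = 0.0759). Knockout array 2 was the highest of the knockouts in both, yet still under every wild type array. Without that array 7 members were called lower and 1 higher, where 3.6% and 2.58% of all genes were: Mrpl16, Mrpl36, Mrpl37, Mrpl51 and Mrpl57 joined Mrpl54, Mrpl55 and Mrpl20.

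**Figure D2:**
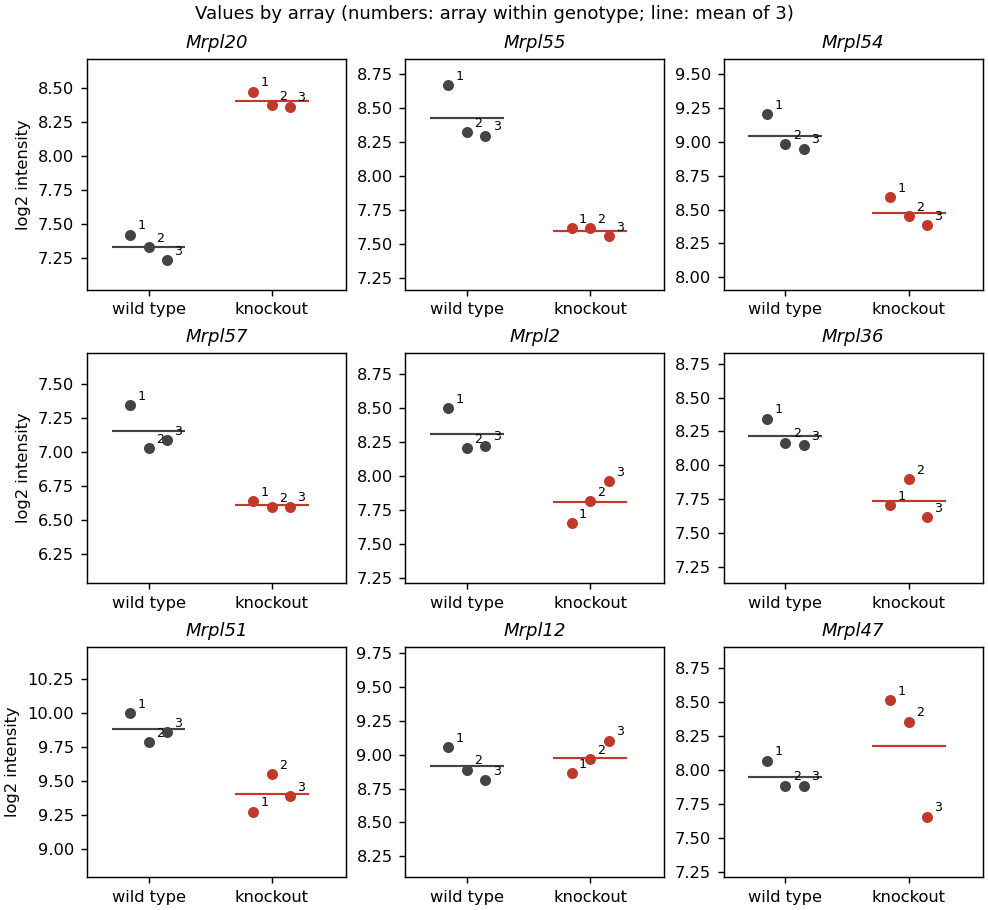
Log2 intensity (y axis) of 9 Mrpl genes in each array, by genotype (x axis: wild type in grey, knockout in red), with each point numbered by its array and a line at the mean of 3. All panels span the same range of log2 units. Mrpl20 is higher in every knockout array, the next 6 genes are lower in every one, and in Mrpl12 and Mrpl47 the genotypes overlap.

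The other 4 members with a positive change had overlapping genotypes. Mrpl12, the stalk protein that recruits translation factors and also binds the mitochondrial RNA polymerase, read 9.06, 8.89 and 8.81 in wild type and 8.86, 8.97 and 9.10 in knockout arrays. Its change was 0.06 ± 0.11 (SE), less than the spread within either genotype. Mrpl41 read 8.92, 8.75 and 8.58 against 9.03, 8.62 and 8.74 (change 0.05 ± 0.13 SE), and Mrpl19 read 7.48, 7.34 and 7.37 against 7.43, 7.57 and 7.24 (change 0.02 ± 0.11 SE). The sign of these 3 changes turned in some alternative settings. Mrpl47, which sits at the mouth of the exit tunnel, split the knockouts: it read 8.07, 7.89 and 7.88 in wild type arrays but 8.52, 8.36 and 7.66 in knockout arrays 1 to 3. Its second probe set had a change of -0.18 against 0.23 for the one used, so its direction is uncertain. The change was 0.49 without knockout array 3 and 0.061 without knockout array 1.

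Probe sets of the other 4 genes with 2 of them could be set side by side. Mrpl23 gave -0.44 and -0.45, Mrpl27 -0.25 and -0.42, and Mrpl51 -0.48 and -0.26, each time lower in the knockouts. Mrpl41 gave 0.05 and -0.01. The platform annotation gives the pairs of Mrpl23 and of Mrpl41 the same transcripts, so they may read near-identical copies and are not independent.

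The other 37 members had changes of -0.44 to -0.03, with limma adjusted p-values of 0.0807 to 0.907. Of them, 22 were lower at an unadjusted p of 0.05, against 10.3% of all genes tested. Over all 48 members, the 3 knockout values lay below the 3 wild type values in 30 genes, above them in 1 and overlapped in 17. Over all genes tested the knockouts lay below in 13.8% and above in 11.1%.

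The decrease was spread over the parts of the subunit. In the peptidyl transferase core (Mrpl2, Mrpl3, Mrpl16 and Mrpl27) all 4 members had negative changes, with a median of -0.34. Of these, 3 were lower at an unadjusted p of 0.05, against 10.3% of all genes, and 0 passed the adjusted limma threshold. Around the exit tunnel 5 of 6 were negative, with a median of -0.28. These include Mrpl45 (-0.29 ± 0.12 SE), which ties the ribosome to the inner membrane, and Mrpl23 (-0.44 ± 0.11 SE) and Mrpl22 (-0.40 ± 0.12 SE), which line or surround the tunnel. In the stalks, which handle tRNA exit and translation factors, 3 of 4 were negative, with a median of -0.15. Mrpl11 (-0.37 ± 0.11 SE) was lower at an unadjusted p of 0.05, whereas Mrpl1 and Mrpl10 (-0.18 and -0.12) were not. These groups are small, and differences between them were not tested.

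Among the 17 other proteins with bacterial counterparts, 15 had negative changes (median -0.26), 10 of them at an unadjusted p of 0.05, against 10.3% of all genes. They include Mrpl32 (-0.39 ± 0.13 SE), whose precursor is cut by a mitochondrial protease before it enters the ribosome, and Mrpl14 and Mrpl34 (-0.39 and -0.35). Among the 17 proteins without bacterial counterparts 16 were negative (median -0.26), also 10 of them at an unadjusted p of 0.05. Mrpl37 was at -0.40 ± 0.10 (SE) and Mrpl48 at -0.34 ± 0.10 (SE). Mrpl58, a peptidyl-tRNA hydrolase built into the subunit, was at -0.29 ± 0.09 (SE), and Mrpl44, which has a ribonuclease-like fold, at -0.28 ± 0.11 (SE). Mrpl39 (-0.03 ± 0.08 SE) differed by less than its error.

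**Figure D3:**
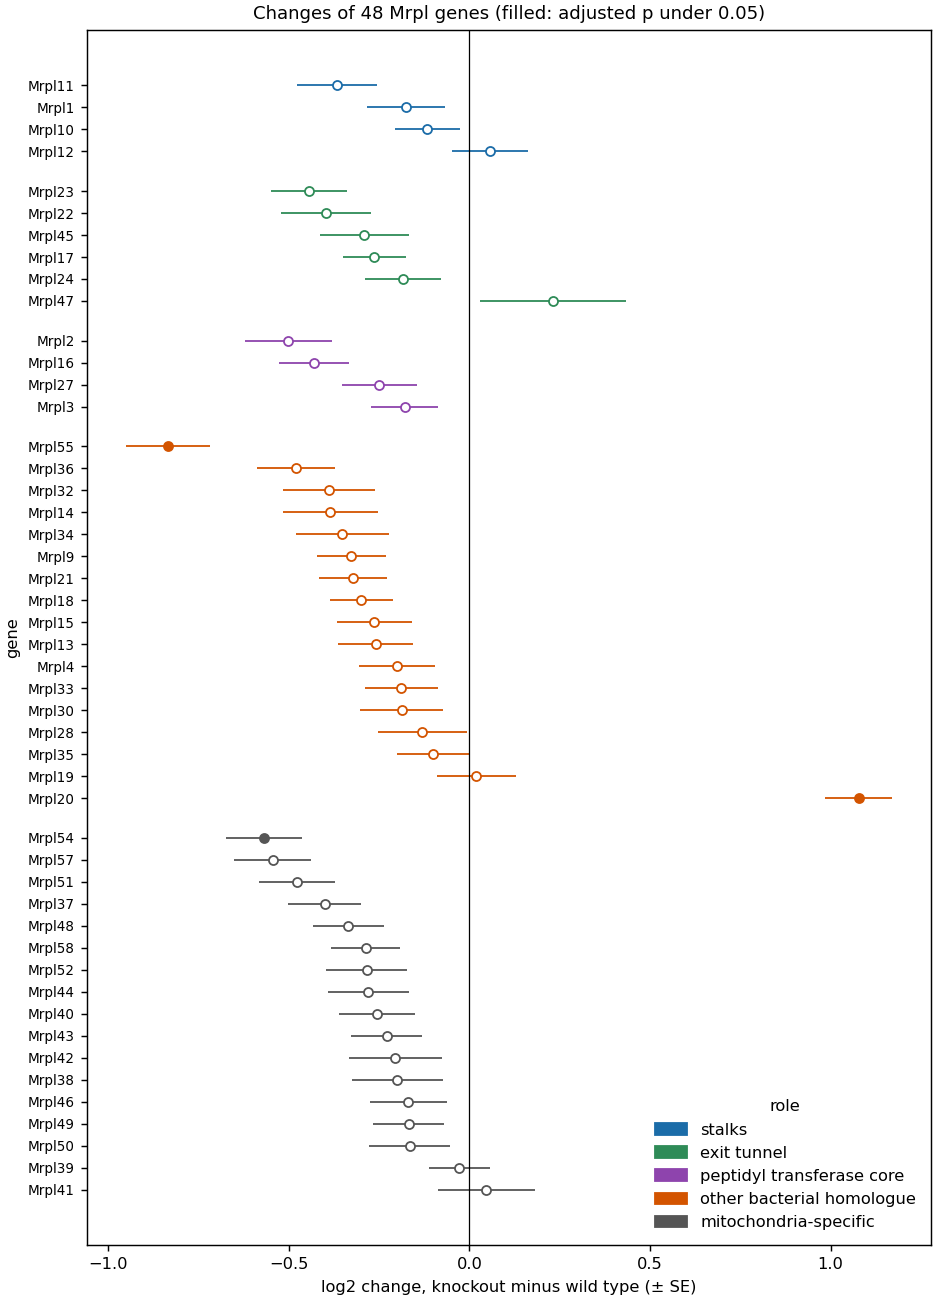
Log2 change (x axis, knockout minus wild type, with bars for ± SE) of each of the 48 Mrpl genes (y axis), grouped by role and coloured by it, with filled points for an adjusted p under 0.05. Only 5 points lie right of 0, Mrpl20 at 1.08 far from the rest, and Mrpl55 lies farthest left at -0.83.

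The arrays differed in how far the members moved. The mean of the 48 genes, relative to the wild type mean, was 0.11, -0.05 and -0.05 in wild type arrays 1 to 3 and -0.21, -0.20 and -0.30 in knockout arrays 1 to 3. Every knockout array was therefore under every wild type array, and wild type array 1 stood apart upward. That array was the highest wild type array in 40 of 48 members, and in 29.4% of all genes. Without it 15 members (31.2%) were lower at an unadjusted p of 0.05, against 7.21% of all genes, the median change was -0.21, and 0 were called lower by limma, where 0.146% of all genes were. With wild type array 2 or 3 left out 0 were called lower too, against 0.146% and 0.121% of all genes, and 21 members were lower at an unadjusted p of 0.05 each time, against 6.34% and 6.46% of all genes. Without knockout array 1, 2 or 3 the count was 26, 24 or 20, against 11.5%, 12.9% and 8.09%, and the plot of shares by array left out shows the members' share above that of all genes in each case.

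**Figure D4:**
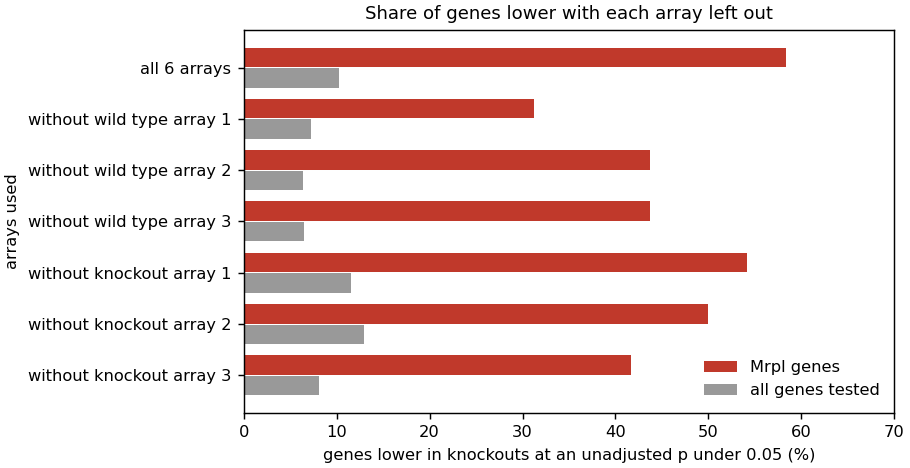
Percentage of genes lower in knockouts at an unadjusted p under 0.05 (x axis) among the Mrpl genes (red) and all genes tested (grey), with all 6 arrays and with each array left out (y axis). The Mrpl share runs from 31.2% without wild type array 1 to 58.3% with all arrays.

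The knockout arrays were scattered less in these genes than over all genes. The SD was larger in knockouts than in wild types in 28 of 48 members, against 75.4% of all genes, with a median SD of 0.122 in knockouts and 0.105 in wild types. Over all genes tested the medians were 0.163 and 0.0912. This was not particular to Mrpl genes: the medians were 0.113 and 0.0893 in the small subunit genes (Mrps) and 0.112 and 0.114 in complex I subunit genes (Nduf).

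Large-subunit proteins that carry other names were lower too. Gadd45gip1, also called CRIF1 and needed for mitochondrial translation, fell 1.84-fold: it read 7.34, 7.23 and 7.34 in wild type and 6.49, 6.41 and 6.37 in knockout arrays, a change of -0.88 ± 0.09 (SE; limma adjusted p = 0.00480). Its 6 values form 2 tight and well separated groups. Mrps18a and Mrps30, which are placed in the large subunit in spite of their names, had changes of -0.55 ± 0.12 and -0.31 ± 0.09 (SE; limma adjusted p = 0.0726 and 0.133).

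The genes of the small subunit were mostly lower as well. Of 29 Mrps genes (Mrps18a and Mrps30 included), 27 had negative changes, with a median of -0.25, 15 (51.7%) were lower at an unadjusted p of 0.05 and 0 were higher, and Mrps14 fell (-0.71 ± 0.09 SE, limma adjusted p = 0.0147). The knockouts lay below the wild types in 62.1% of Mrps genes and in 62.5% of Mrpl genes, against 13.8% of all genes. Complex I subunit genes (Nduf) are nuclear genes for an enzyme of which the mitochondrial ribosome makes part of the core. Of 36 Nduf genes 31 had negative changes, with a median of -0.15, and the knockouts lay below the wild types in 30.6%. At an unadjusted p of 0.05, 6 (16.7%) were lower, against 10.3% of all genes. Ndufs5 fell (-1.04 ± 0.11 SE, limma adjusted p = 0.00636). Cytosolic ribosomal protein genes (Rpl and Rps) had a median of -0.07 over 65 genes, of which 46 had negative changes. The knockouts lay below the wild types in 13.8% of them. With no adjustment 6 (9.23%) were lower and 1 higher, against 10.3% and 8.16% of all genes. Among the Rpl and Rps genes Rpl34 fell and Rps3a1 rose (-1.16 and 0.99, limma adjusted p = 0.0344 and 0.0482). Differences between these groups were not tested. In wild type array 1 all 4 groups stood high, at 0.10 to 0.13 above the wild type mean.

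**Figure D5:**
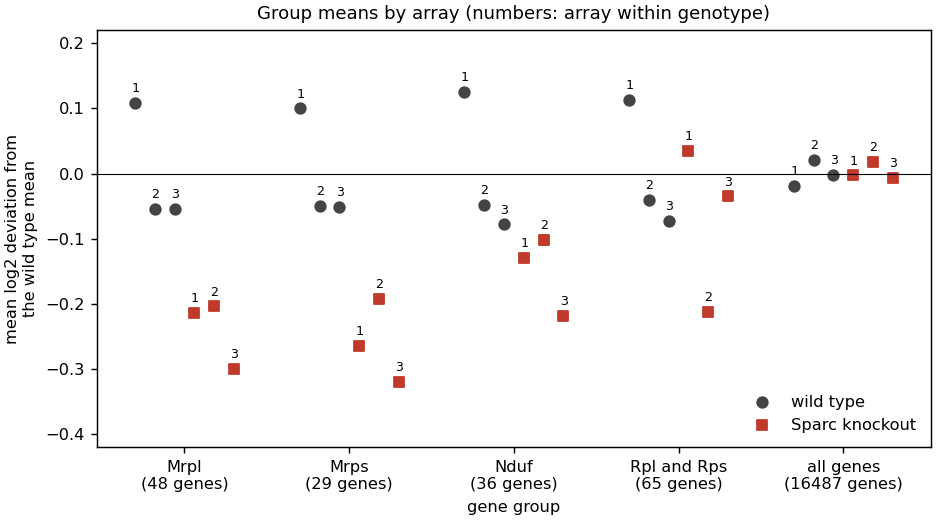
Mean log2 deviation from the wild type mean (y axis) in each array for the Mrpl, Mrps, Nduf, and Rpl and Rps genes and all genes tested (x axis), with wild types as grey circles and knockouts as red squares numbered by array. Knockout Mrpl means lie at -0.30 to -0.20, and all genes tested at -0.02 to 0.02 in every array.

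Genes that build the subunit and run translation had mostly negative changes. Of 21 factors for large-subunit assembly and rRNA modification 19 had negative changes (median -0.19). With no adjustment 7 (33.3%) were lower at p under 0.05, against 10.3% of all genes, and 0 passed after adjustment by limma. Those with the smallest p were Mrm3, a methyltransferase of the large rRNA, at -0.41 ± 0.11 (SE; limma adjusted p = 0.118), and Malsu1, an assembly factor that keeps the immature subunit apart from the small one, at -0.44 ± 0.12 (SE; limma adjusted p = 0.122). Of 7 small-subunit assembly factors Rbfa fell (-0.57 ± 0.10 SE; limma adjusted p = 0.0397), and the median was -0.16. Of 15 translation factors 12 had negative changes (median -0.15). Only 3 (20%) were lower at an unadjusted p of 0.05, against 10.3% of all genes, with 0 past the limma threshold. The 2 with the smallest p were the release factors Mtrf1 (-0.40 ± 0.12 SE) and Mtrf1l (-0.32 ± 0.13 SE).

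Upstream, 8 of 9 genes of mitochondrial transcription and DNA maintenance had negative changes (median -0.20), led by Tefm (-0.36 ± 0.11 SE) and Tfb2m (-0.37 ± 0.13 SE). At an unadjusted p of 0.05, 4 (44.4%) were lower, against 10.3% of all genes, and 0 were past the limma threshold. The 10 regulators of nuclear genes for mitochondria had mixed directions, 6 negative and 4 positive. Their median was -0.05, and 0 passed by limma, while 2 were higher and 0 lower with no adjustment (8.16% and 10.3% over all genes): the coactivator Ppargc1a at 0.44 ± 0.12 (SE; limma adjusted p = 0.122) and Gabpb2, a GABP subunit, at 0.30 ± 0.12 (SE; limma adjusted p = 0.210). Nrf1 was at -0.08 and Gabpa at 0.06. Of 12 genes that reflect mitochondrial content 9 had negative changes (median -0.17). Only 2 (16.7%) were lower at an unadjusted p of 0.05, against 10.3% of all genes, and 0 were past the limma threshold. Timm23, an import channel, was at -0.38 ± 0.09 (SE), Vdac3, an outer membrane channel, at -0.22 ± 0.08 (SE), and citrate synthase (Cs) at -0.16 ± 0.12 (SE). None of the listed genes of the mitochondrial DNA, the ribosome's own rRNAs included, was among the named genes used here.

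On chromosome 11, where Sparc lies, there are 8 members (Mrpl55, Mrpl22, Mrpl45, Mrpl58, Mrpl27, Mrpl38, Mrpl10 and Mrpl12). Their changes ran from -0.83 to 0.06. Of these 8, 5 were lower at an unadjusted p of 0.05, against 28 of all 48 members and 10.3% of all genes. In 4 of the 8 every knockout array lay below every wild type array, against 30 of all 48 members and 13.8% of all genes. Mrpl55 and Mrpl22 stand 45 and 14 tested genes from Sparc. Of the 10 tested genes nearest to Sparc 0 were called by limma and 0 passed an unadjusted p of 0.05. Of the 10 nearest to Mrpl55, the histone gene H2aw fell (-0.52 ± 0.09 SE; limma adjusted p = 0.0397), and of the 10 nearest to Mrpl22 Zfp672 fell (-0.53 ± 0.09 SE; limma adjusted p = 0.0369), while 0.995% of all genes were called. At an unadjusted p of 0.05, 3 of the 10 nearest to Mrpl55 and 4 of the 10 nearest to Mrpl22 were lower, against 10.3% of all genes. Near Mrpl20, on chromosome 4, Mxra8, 2 tested genes away, rose (0.70 ± 0.12 SE; limma adjusted p = 0.0401), while Ccnl2, between them, was at 0.23 ± 0.16 (SE). Of the 10 nearest to Mrpl20, 1 was lower and 1, Mxra8, higher at an unadjusted p of 0.05. Near Mrpl54, on chromosome 10, 0 of 10 were called by limma. At an unadjusted p of 0.05, 3 of these were lower and 0 higher, against 10.3% and 8.16% of all genes.

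Markers of the cells in the samples moved with genotype as well. The summed intensity of the 10 muscle fibre markers was 69833 to 70140 in wild type and 61594 to 69008 in knockout arrays. Of these, 7 had negative and 3 positive changes; at an unadjusted p of 0.05, Ckm and Actn3 were lower (-0.28 and -0.25) and Ttn and Myh1 higher (0.47 and 0.43). Slow fibre markers, typical of mitochondria-rich fibres, were negative in 8 of 9 genes, with Myl3 called lower (-1.23 ± 0.18 SE; limma adjusted p = 0.0256), and their sums overlapped (7212 to 8149 against 4321 to 10346). Knockout arrays 1 and 2 (5980 and 4321) lay below every wild type array in this sum and knockout array 3 above every one. Macrophage and fibroblast markers were positive in 9 of 9 and 8 of 8 genes, with sums of 2269 to 2533 against 3161 to 5746 and of 11762 to 12870 against 13189 to 17791. Smooth muscle and pericyte markers were positive in 7 of 7 (2870 to 3371 against 3636 to 3929) and tendon markers in 7 of 7 (2486 to 3546 against 2763 to 6903). Adipocyte markers were negative in 7 of 7 (2237 to 3979 against 2274 to 2782), and endothelial markers in 4 of 7. Schwann cell markers were negative in 2 of 4 (1374 to 1765 against 1373 to 2319), and both erythroid markers on the array were negative (116 to 141 against 78.7 to 105). No listed marker with a probe set lay under the dim filter. The part of these shifts in the lower Mrpl values was not tested.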

How the data were processed

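RNA of gastrocnemius muscle was measured on 6 Affymetrix arrays, 3 per genotype. The authors deposited RMA intensities on a linear scale, made, according to the submitters' processing notes, using Affymetrix Expression Console 1.3.0.187. RMA shrinks differences between dim probe sets. The build behind the probe sets was not given in the sources used here. For the re-analysis log2 was taken. Of 35556 probe sets, 21789 had 1 gene symbol in the platform annotation, which can be old, 1621 had several and were not used, and 12146 were unnamed. All 48 Mrpl genes matched the RefSeq table (GRCm38.p6) by Entrez ID, which served for names, gene order and promoters.

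Genes were left out as dim where their mean was lower than the 25th percentile over probe sets. Genotypes were compared over all genes with limma 3.58.1 in R 4.3.3 (lmFit, eBayes with trend, two-sided, Benjamini-Hochberg), which was tested on simulated data. Errors are the fit's SEs. The members, lists and roles were chosen with earlier results of these data known. Every array is given for members past the threshold, the 6 largest changes each way (5 were positive) and the 6 smallest p. In related lists, members past the threshold or the 2 with the smallest p were named, and others were named after their values were seen. Alternatives were another scaling, filter, probe-set rule or variance model, array weights, a replicate block and leaving out each array. The number of arrays limits the precision.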

Additional observations from a re-analysis of the deposited data

How the results depend on the processing

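Changes of named members are on the log2 scale. The median Mrpl change ran from -0.30 to -0.21 over the 15 alternatives, and 42 to 44 members had negative changes (42 of 47 with the stricter dim filter). Mrpl20 was called in all 15 and Mrpl55 in 12. The number of members called lower was 1 in place of 2 after median centring, after a second quantile normalization, with no dim filter, with probe sets averaged, with no variance trend and with the replicate block, where Mrpl54 lost its call. With 1 array left out the number called lower was 0 to 7, against 0.121% to 3.6% of all genes. At an unadjusted p of 0.05, 15 to 26 members were lower in place of 28, against 6.34% to 12.9% of all genes. Those higher were 1 to 2, against 4.88% to 10.6%. Over all genes, 53 rose and 111 fell; the increases were 26 after median centring, increases and decreases were 110 and 219 with array weights, and 6 to 425 and 20 to 594 with 1 array left out. Replicate numbers did not pair the samples (correlations of deviations 0.01, 0.08 and -0.02). With the replicate block 64 genes fell. In that setting 25 members (52.1%) were lower at an unadjusted p of 0.05, against 9.27% of all genes, and the cause was not tested. Changes near 0 turned sign: Mrpl19 was at -0.022 after median centring and ran from -0.061 to 0.11 with 1 array left out, Mrpl41 from -0.069 to 0.13, and Mrpl12 from -0.0046 to 0.13. Without knockout array 2, Mrpl36, Mrpl51 and Mrpl57 passed (-0.56, -0.55 and -0.54). Detection calls were not used here. Because RMA shrinks differences between dim probe sets, dim members such as Mrpl22 may have understated changes, which was not tested.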
